A study of Homo sapiens with 4 samples.

Results

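The TNF receptor superfamily was examined through 10 of its genes that are known from B cells: TNFRSF13C, TNFRSF13B and TNFRSF17 (the receptors of BAFF and APRIL), TNFRSF14, CD27 and CD40 (costimulatory receptors), and TNFRSF10A, TNFRSF10B, TNFRSF1A and TNFRSF21 (receptors with a death domain). They were looked up by symbol among the 23368 entries of the deposited count table, and all 10 were found. The list was chosen by gene symbol with the counts of these same lines and their deposited DESeq group differences in view, so the differences of these genes between groups are a description and carry no test. RNA of 4 human leukemia lines of the precursor-B acute lymphoblastic kind was sequenced, with a single library from each (1 per line). The chromosome translocation t(4;11), a fusion of MLL (KMT2A) and AFF1, is present in RS4;11 and SEM and absent from NALM6 and REH. All 4 lines were grown untreated in RPMI medium with fetal bovine serum and harvested before confluence. Each group therefore held 2 lines (n = 2), each from a different leukemia, and every other difference between the lines is contained in the spread within and between groups.

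Receptors of this superfamily bind trimeric ligands at the cell surface. Those with TRAF-binding tails activate NF-kB and promote survival, and those with a death domain can recruit FADD and caspase 8 and start apoptosis. In the B lineage BAFF receptor supports survival of naive B cells, and TACI (TNFRSF13B) and BCMA (TNFRSF17) appear on activated B cells and plasma cells. CD40 and CD27 receive signals from T cells, and CD27 also marks memory cells. HVEM (TNFRSF14) binds LIGHT, lymphotoxin alpha, BTLA and CD160, and is a recurrent target of loss in follicular lymphoma.

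The summed gene counts were 51872617 in RS4;11 and 33620574 in SEM, against 44849858 in NALM6 and 84212986 in REH. Levels are given as CPM, counts scaled to these sums, and a floor of 3 counts corresponded to between 0.0356 CPM (REH) and 0.0892 CPM (SEM). In these bulk libraries fewer cells that make an RNA and less of it per cell cannot be told apart. The 9 B-precursor markers examined were all above 3 counts in every line, and CD3D, CD3E and CD3G of T cells were at 0 counts in all 4. The B-precursor markers summed to 2147 and 1212 CPM with the translocation (RS4;11, SEM) and 3199 and 4287 CPM without it (NALM6, REH). Listed as mature B cell markers were MS4A1, CR2, FCER2 and CD24, with CR2 at 0 counts in SEM, NALM6 and REH. These 4 genes summed to 269 and 7.79 CPM with the translocation (RS4;11, SEM) and 1901 and 1133 CPM without it (NALM6, REH). That sum was mostly CD24, which had 268 and 6.01 CPM with the translocation and 1895 and 1132 CPM without it, while MS4A1 (CD20) had 0.0193 and 1.34 CPM with the translocation and 0.0223 and 0.487 CPM without it. FCER2 had 0.636 and 0.446 CPM with the translocation and 5.86 and 0.0119 CPM without it, so that its groups overlapped, as did those of MS4A1. The B-precursor sum and CD24 were thus lower in both translocation lines, as were TNFRSF14, TNFRSF21, TNFRSF10B and CD27. The part of this in the results on the receptors was not tested. The 4 plasma cell markers summed to 474 and 196 CPM with the translocation and 636 and 186 CPM without it, so that the groups overlapped. Summed markers of T and NK cells were between 0.154 and 4.91 CPM, those of stromal and epithelial cells between 0.312 and 4.16 CPM, and those of myeloid cells between 15.3 and 49.7 CPM. The highest T and NK sum, in SEM, was mostly NCAM1 (4.67 CPM), which had 0 counts in RS4;11, NALM6 and REH. Single genes also made up most of the myeloid sums of SEM (CSF1R, 33.3 CPM) and REH (MPO, 34.2 CPM).

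The first question was whether the receptors differed between lines with and without t(4;11). TNFRSF14, TNFRSF21, TNFRSF10B and CD27 were lower in both translocation lines than in both other lines, and none of the 10 was higher in both. Of the 13844 genes that passed the filter on low counts, 28.3% were lower in both translocation lines and 19% were higher in both. The filter asks for roughly 10 counts in at least 2 lines, and 9 of the 10 receptors passed it. TNFRSF10A did not, because only REH held more than 3 counts of it. EdgeR's quasi-likelihood test called 0% of all genes at an adjusted p under 0.05, with 1668 genes at an unadjusted p under 0.05, so it called no receptor. The authors' deposited DESeq table called 1 receptor, TNFRSF14, lower with t(4;11), beside 0.63% of its 18416 tested genes. Their deposited Cuffdiff table called 1 other, TNFRSF21, lower, beside 1.11% of its 14203 tested genes. Log2 fold changes below are t(4;11) over no t(4;11), with standard errors (SE) from the edgeR fit.

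**Figure D1:**
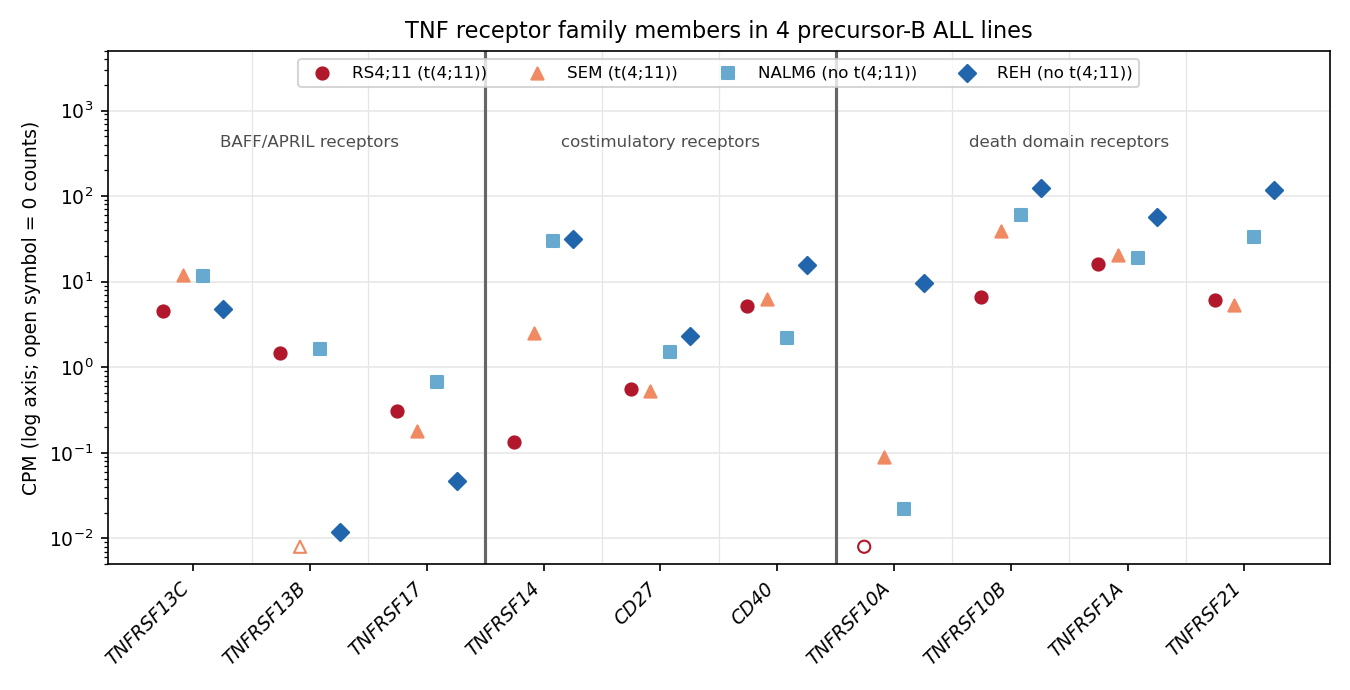
CPM on a log axis of the 10 receptors in each of the 4 lines, with 1 point per line and open symbols for 0 counts. TNFRSF14 and TNFRSF21 show both translocation lines below both other lines by the widest margins, and TNFRSF10A stands above 1 CPM in REH alone.

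Among the costimulatory receptors, TNFRSF14 separated the groups most widely. It had 0.135 CPM (RS4;11) and 2.50 CPM (SEM) with the translocation, and 29.9 CPM (NALM6) and 31.8 CPM (REH) without it. The lines without t(4;11) were close to each other, while RS4;11, with 7 counts, lay far below SEM, with 84 counts. The group means were 1.32 ± 1.67 CPM with the translocation and 30.9 ± 1.38 CPM without it (SD, n = 2 each), and the log2 fold change was -4.47 (SE 1.55). It was -3.53 without RS4;11 and -7.69 without SEM, so its size rested on which translocation line was kept. Its sign could not turn, as both translocation lines lay below both other lines. In the authors' deposited DESeq table the adjusted p was 8.55e-07, and in their deposited Cuffdiff table the q was 0.238. The gene lies on chromosome 1 (2487208 to 2495267, hg19), in a span that the deposited Cuffdiff table also assigns to LOC100133445. In GENCODE it overlaps the antisense gene TNFRSF14-AS1, whose reads an unstranded library cannot separate from its own.

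The 250 bases before the start of TNFRSF14 are shown beside those of TNFRSF21, the other receptor called in a deposited table, and of TNFRSF13B, which was detected well above the floor in 1 line of each group. They come from RefSeq (GRCh38.p14), read 5′ to 3′ on the strand of the gene at chr1:2556121-2556370 (plus strand), chr6:47309906-47310155 (minus strand) and chr17:16972119-16972368 (minus strand). Capitals mark matches to GGGNNNNNCC, the core of the NF-kB motif, on either strand.
TNFRSF14: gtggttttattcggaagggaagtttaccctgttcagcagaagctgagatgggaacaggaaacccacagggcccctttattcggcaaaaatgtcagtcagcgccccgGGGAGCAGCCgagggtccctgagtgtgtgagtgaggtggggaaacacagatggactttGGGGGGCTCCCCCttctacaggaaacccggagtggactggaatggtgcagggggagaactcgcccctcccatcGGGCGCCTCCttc
TNFRSF21: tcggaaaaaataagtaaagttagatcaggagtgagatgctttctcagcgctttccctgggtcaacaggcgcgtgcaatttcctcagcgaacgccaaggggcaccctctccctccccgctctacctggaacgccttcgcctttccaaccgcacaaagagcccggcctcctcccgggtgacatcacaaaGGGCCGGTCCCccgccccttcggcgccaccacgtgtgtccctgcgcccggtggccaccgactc
TNFRSF13B: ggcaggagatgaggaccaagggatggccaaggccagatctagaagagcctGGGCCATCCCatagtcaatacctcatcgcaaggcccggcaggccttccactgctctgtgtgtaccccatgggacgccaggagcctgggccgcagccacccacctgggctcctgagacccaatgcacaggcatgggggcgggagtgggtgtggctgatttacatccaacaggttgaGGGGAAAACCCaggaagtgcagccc
The stretch held 6 matches in TNFRSF14, of which 4 overlap each other, 2 overlapping matches in TNFRSF21 and 3 in TNFRSF13B, of which 2 overlap. RefSeq promoters were at hand for 5 of the 10 receptors. Of these 5, 4 held a match, TNFRSF1A being the one without, and so did 54.4% of all 35116 promoters over the same length. CAGNTG, a form of the E-box motif, was searched on both strands. It was present in 4 of the 5 and in 42.5% of all promoters, with TNFRSF21 the one without this form. TNFRSF21 had 20 CpG dinucleotides in this stretch, TNFRSF14 had 9 and TNFRSF13B had 5, against a median of 11 over all promoters. A match of letters is no evidence that a factor binds there.

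CD27, the receptor of CD70, was low in every line. It had 0.559 CPM (RS4;11) and 0.535 CPM (SEM) with the translocation, and 1.49 CPM (NALM6) and 2.35 CPM (REH) without it. The translocation lines did not differ beyond counting error, and both lay below the other lines. Its log2 fold change was -1.71 (SE 0.66) and stayed between -2.00 and -1.35 as each line was left out. The deposited Cuffdiff FPKM, a length-scaled unit summarised over each group, gave a log2 difference of only -0.80. CD27 overlaps CD27-AS1 and TAPBPL in GENCODE, and the deposited Cuffdiff table places it in 1 span with LOC678655 (chromosome 12, 6548167 to 6560884, hg19), so its count is uncertain.

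CD40, the receptor of CD40 ligand, had overlapping groups. It had 5.26 CPM (RS4;11) and 6.28 CPM (SEM) with the translocation, and 2.21 CPM (NALM6) and 15.5 CPM (REH) without it. The translocation lines lay together between the other lines, of which REH was the highest and NALM6 the lowest of all 4. The log2 fold change of -0.52 (SE 1.07) became 1.48 without REH and -1.33 without NALM6.

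Among the death domain receptors, TNFRSF21 (death receptor 6) had the clearest separation. It had 6.09 CPM (RS4;11) and 5.38 CPM (SEM) with the translocation, and 33.4 CPM (NALM6) and 117 CPM (REH) without it. The translocation lines did not differ beyond counting error, whereas REH was 3.49-fold above NALM6. The group means were 5.74 ± 0.501 CPM with the translocation and 75.2 ± 59.0 CPM without it (SD, n = 2 each). The log2 fold change was -3.61 (SE 0.75), with -2.44 without REH and -4.24 without NALM6. In the authors' deposited Cuffdiff table the q was 0.0379, and in their deposited DESeq table the adjusted p was 0.791. The gene lies on chromosome 6 (47199268 to 47277680, hg19) and overlaps no other gene in GENCODE.

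TNFRSF10B encodes TRAIL receptor 2, a death receptor that can recruit caspase 8. It had 6.69 CPM (RS4;11) and 39.5 CPM (SEM) with the translocation, and 60.2 CPM (NALM6) and 124 CPM (REH) without it. The groups did not overlap, but SEM lay nearer to NALM6 than to RS4;11. NALM6 was 1.52-fold above SEM (95% exact counting interval 1.43 to 1.63), and SEM was 5.90-fold above RS4;11 (5.24 to 6.66). The log2 fold change of -1.91 (SE 1.00) was -1.13 without RS4;11 and -3.66 without SEM. In the authors' deposited tables its adjusted p was 0.620 by DESeq and its q was 0.207 by Cuffdiff. It shares its Cuffdiff span on chromosome 8 with RHOBTB2 and LOC286059 and overlaps RHOBTB2 in GENCODE.

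TNFRSF10A encodes TRAIL receptor 1 and lies near TNFRSF10B on chromosome 8. In GENCODE it overlaps TNFRSF10A-AS1, AC100861.1 and RPL23AP55. It had 0 counts in RS4;11 and 3 counts in SEM (0.0892 CPM), against 1 count in NALM6 (0.0223 CPM) and 816 counts in REH (9.69 CPM). It was thus at or under the floor in 3 of the 4 lines, including NALM6, and REH alone carried it. REH was 435-fold above NALM6, with a counting interval of 77.8 to 17186 that reflects the single count in NALM6. TNFRSF10B, by contrast, had at least 347 counts in every line.

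TNFRSF1A encodes TNF receptor 1, a main receptor of TNF. It had 16.0 CPM (RS4;11) and 20.7 CPM (SEM) with the translocation, and 19.2 CPM (NALM6) and 57.0 CPM (REH) without it. The groups overlapped, with SEM above NALM6 by less than counting error. The log2 fold change of -0.96 (SE 0.63) was 0.03 without REH, so its size rested on that line.

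**Figure D2:**
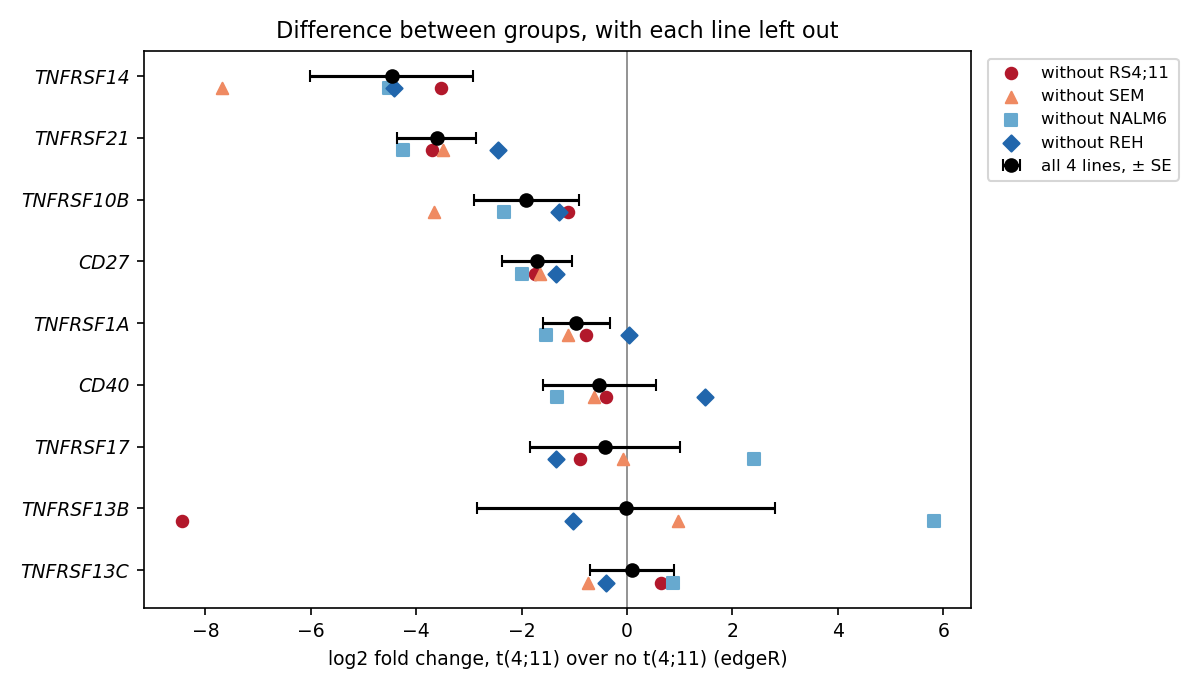
Log2 fold changes (t(4;11) over no t(4;11)) of the 9 receptors that passed the filter, as black points with SE, and the same value with each line left out as coloured points. TNFRSF14, TNFRSF21, TNFRSF10B and CD27, whose groups do not overlap, necessarily stay below 0 throughout. TNFRSF13B ranges between -8.45 and 5.82.

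The groups overlapped for all 3 BAFF and APRIL receptors. TNFRSF13C (BAFF receptor) had 4.53 CPM (RS4;11) and 12.1 CPM (SEM) with the translocation, and 11.7 CPM (NALM6) and 4.84 CPM (REH) without it. SEM and NALM6 did not differ beyond counting error, nor did REH and RS4;11, so the lines fell into a higher and a lower pair with 1 line of each group in both. Its log2 fold change was 0.10 (SE 0.80). TNFRSF13C overlaps MIR378I in GENCODE.

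TNFRSF13B (TACI, which binds both BAFF and APRIL) paired the lines in another way. It had 76 counts in RS4;11 (1.47 CPM) and 0 in SEM, against 73 counts in NALM6 (1.63 CPM) and 1 in REH (0.0119 CPM). NALM6 and RS4;11 did not differ beyond counting error, and SEM and REH were both under the floor. RS4;11 was at least 16.4-fold above SEM, set against the floor of 3 counts in SEM. NALM6 was 137-fold above REH, with a counting interval of 23.8 to 5487. The log2 fold change between groups of -0.02 had an SE of 2.82. TNFRSF13B overlaps TBC1D27P in GENCODE.

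TNFRSF17 (BCMA, the APRIL receptor of plasma cells) had the lowest FPKM of the receptors that passed the filter. It had 0.308 CPM (RS4;11) and 0.178 CPM (SEM) with the translocation, and 0.669 CPM (NALM6) and 0.0475 CPM (REH) without it. Its counts ran between 4 (REH) and 30 (NALM6), and the steps between RS4;11 and SEM and between SEM and REH were within counting error. Its log2 fold change was -0.41 (SE 1.43). TNFRSF17 overlaps NPIPB2 in GENCODE.

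Per length, in the deposited Cuffdiff FPKM of each group, TNFRSF13C held place 1 of the 10 receptors with the translocation, at 10.9 FPKM, and held place 5 without it, at 10.2 FPKM. TNFRSF1A stood at 8.85 FPKM with the translocation and 17.4 FPKM without it, and TNFRSF10B at 5.83 and 22.0 FPKM. TNFRSF14 stood at 0.874 FPKM with the translocation and 19.8 FPKM without it, and TNFRSF21 at 1.68 and 20.4 FPKM. That place of BAFF receptor in the translocation group thus came with lower values of TNFRSF10B, TNFRSF21, TNFRSF1A and TNFRSF14 there, its own FPKM being about equal in both groups. TNFRSF17 and TNFRSF13B were under 1 FPKM in both groups, and TNFRSF10A had 0.0281 FPKM with the translocation and 2.89 FPKM without it. These are the authors' group values and have no spread.

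The receptors also differed within groups. RS4;11 and SEM were at least 4-fold apart in 3 receptors (TNFRSF14 and TNFRSF10B lower in RS4;11, TNFRSF13B higher), beside 11.1% of all genes tested. NALM6 and REH were at least 4-fold apart in 4 (TNFRSF13B and TNFRSF17 higher in NALM6, CD40 and TNFRSF10A lower), beside 16.5% of all genes tested, among which TNFRSF10A is not. The set within each group was thus different, with TNFRSF13B in both. REH had the highest CPM of 7 receptors (6 of the 9 that passed the filter) and RS4;11 of none, while REH was highest for 32.3% of all genes tested and RS4;11 for 17.3%. RS4;11 had the lowest CPM of 5 receptors (4 of the 9) and of 24.5% of all genes tested. All 4 death domain receptors and all 3 costimulatory receptors were highest in REH, and the BAFF and APRIL receptors were highest in SEM (TNFRSF13C) or NALM6 (TNFRSF13B and TNFRSF17). REH was also the most deeply sequenced line, and the part of depth in this was not tested; CPM is scaled to depth.

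By likeness of pattern, the Euclidean distance of log2(CPM + 1) over the 4 lines was taken for the 3 receptors with the widest range. Nearest to TNFRSF14 were HAR1A (distance 0.91), GPR124 (1.10) and NFIA (1.23). Nearest to TNFRSF21 were SORBS3 (0.95), PFKFB4 (1.02) and ACBD7 (1.22), and nearest to TNFRSF10B were GNG2 (0.92), HIP1 (1.09) and NFIC (1.10). With 4 lines such likeness describes these libraries only.

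The other members of the pathway were set beside these receptors. Of 19 further TNF receptors, 12 passed the filter, with a median log2 fold change of 0.43 against -0.02 over all genes tested. Both translocation lines were higher than both other lines in 3 of the 12 and lower in none, beside 19% higher and 28.3% lower over all genes tested. LTBR, the lymphotoxin beta receptor, had 1.25 CPM (RS4;11) and 6.34 CPM (SEM) with the translocation, and 0 CPM (NALM6) and 0.0475 CPM (REH, 4 counts) without it. Its log2 fold change was 7.13 (SE 1.89, edgeR quasi-likelihood adjusted p = 0.370) and lay between 5.61 (without SEM) and 10.39 (without REH) as each line was left out. EDA2R, a receptor of ectodysplasin A2, had 10.2 and 0.327 CPM with the translocation (RS4;11, SEM) and 0.0446 and 0.0237 CPM without it (NALM6, REH). Its log2 fold change of 7.33 (SE 2.21, edgeR quasi-likelihood adjusted p = 0.386) was 3.30 without RS4;11 and 8.29 without SEM. TNFRSF9 (4-1BB), picked out after its values were seen, had 0.231 CPM (RS4;11) and 1.81 CPM (SEM) with the translocation, and 0 CPM (NALM6) and 0.0356 CPM (REH) without it. These 3 were the ones with an unadjusted p under 0.05, and none of the 19 was called in either deposited table, where 0.934% (DESeq) and 1.23% (Cuffdiff) of all genes were called higher. The low levels of LTBR and EDA2R without the translocation stood opposite to TNFRSF14, which was low with it.

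Of 18 ligands, 9 passed the filter, and their median log2 fold change was 0.04. Both translocation lines were higher in 2 of the 9 and lower in 2, beside 19% and 28.3% of all genes tested. Several ligands were high in a single line. TNFSF4 (OX40 ligand) had 83.3 and 0.446 CPM with the translocation (RS4;11, SEM) and 5.22 and 14.3 CPM without it (NALM6, REH). LTB, lymphotoxin beta, had 0.116 and 0.119 CPM with the translocation and 0.0892 and 34.4 CPM without it, and TNF had 2.33 and 3.03 CPM with the translocation and 0.803 and 19.6 CPM without it. TNFSF13B (BAFF) had 4.94 and 5.47 CPM with the translocation (RS4;11, SEM) and 1.20 and 1.99 CPM without it (NALM6, REH) (log2 fold change 1.80, SE 0.61, edgeR quasi-likelihood adjusted p = 0.410). LTA, lymphotoxin alpha and a ligand of TNFRSF14, had 0.116 and 0.208 CPM with the translocation and 2.56 and 8.79 CPM without it (log2 fold change -5.03, SE 1.06, edgeR quasi-likelihood adjusted p = 0.334), and the fold change was -3.88 without REH and -5.66 without NALM6. The deposited Cuffdiff table places LTA, LTB and TNF on an alternate sequence of chromosome 6 (6_ssto_hap7), and the part of this in their counts was not tested. By these counts LTA and TNFRSF14 were both low in the translocation lines and both higher in NALM6 and REH. The other ligand, TNFSF14 (LIGHT), had 0.922 CPM in SEM and 0 counts in the other 3 lines, and BTLA was under the floor in RS4;11, SEM and REH, with 0.0892 CPM in NALM6. CD160, a further partner of TNFRSF14, was above the floor in every line, with 0.655 and 0.238 CPM with the translocation (RS4;11, SEM) and 0.914 and 0.606 CPM without it (NALM6, REH). TNFSF8 (CD30 ligand) reached 3.86 CPM (RS4;11) and 0.0595 CPM (SEM) with the translocation, and 0 counts in both lines without it. It did not pass the filter. The authors' deposited Cuffdiff table called it higher (q = 0.00418). Its HTSeq counts were 200 in RS4;11 and 2 in SEM, and the part of RS4;11 in the call was not tested. EDA, the ectodysplasin ligand, had 4.97 and 9.99 CPM with the translocation (RS4;11, SEM) and 26.0 and 12.3 CPM without it (NALM6, REH). CD40LG had at most 0.0475 CPM in any line, and CD70 had 10.9 and 1.73 CPM with the translocation (RS4;11, SEM) and 1.27 and 8.32 CPM without it (NALM6, REH).

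Downstream, the 21 TRAF adaptors and ubiquitin enzymes all passed the filter, with a median log2 fold change of -0.18. Both translocation lines were lower in 11 of them and higher in 4, beside 28.3% and 19% of all genes tested. TNFAIP3, the ubiquitin-editing enzyme A20 that restrains NF-kB and is itself induced by it, had 16.4 and 7.32 CPM with the translocation (RS4;11, SEM) and 156 and 672 CPM without it (NALM6, REH). It was called lower in the authors' deposited Cuffdiff table (q = 0.00418) and not in their deposited DESeq table (adjusted p = 0.668). Its log2 fold change was -5.02 (SE 1.03, edgeR quasi-likelihood adjusted p = 0.324) and lay between -5.73 and -3.61 as each line was left out. TRAF1, an adaptor of several of these receptors, had 11.7 and 7.50 CPM with the translocation and 28.3 and 40.7 CPM without it (log2 fold change -1.74, SE 0.42, edgeR quasi-likelihood adjusted p = 0.351). RBCK1, a subunit of the linear ubiquitin ligase, had 29.1 and 40.0 CPM with the translocation and 88.0 and 55.6 CPM without it.

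Of 9 death receptor effectors, all passed the filter, with a median log2 fold change of 0.09. Both translocation lines were higher in 3 and lower in 2, beside 19% and 28.3% of all genes tested. BID, which caspase 8 cleaves to engage mitochondria, had 93.3 and 107 CPM with the translocation (RS4;11, SEM) and 55.9 and 38.2 CPM without it (NALM6, REH) (log2 fold change 1.19, SE 0.27, edgeR quasi-likelihood adjusted p = 0.337). FADD, the death domain adaptor, had 26.1 and 33.9 CPM with the translocation and 19.4 and 16.9 CPM without it. BID and FADD were the ones with an unadjusted p under 0.05, and their values were higher in the translocation lines, where TNFRSF10B and TNFRSF21 were lower. CASP10, an initiator caspase related to caspase 8, had 16.9 and 11.0 CPM with the translocation (RS4;11, SEM) and 26.7 and 24.6 CPM without it (NALM6, REH). CASP8 had a log2 fold change of 0.37 (SE 0.21).

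The 12 NF-kB subunits and IKK genes all passed the filter, with a median log2 fold change of 0.02. Both translocation lines were lower in 3 and higher in 1, beside 28.3% and 19% of all genes tested. RELB, of the alternative NF-kB pathway, had 15.7 and 10.6 CPM with the translocation (RS4;11, SEM) and 4.26 and 5.88 CPM without it (NALM6, REH). BCL3, an atypical inhibitor protein of NF-kB, had 0.925 and 0.654 CPM with the translocation and 1.27 and 10.6 CPM without it. IKBKB, a kinase of the IKK complex, had 39.6 and 66.0 CPM with the translocation and 79.4 and 101 CPM without it. Of 16 NF-kB target genes, 11 passed the filter, with a median log2 fold change of -0.99, and both translocation lines were lower in 6 of the 11 and higher in 1, RELB, beside the same 28.3% and 19%. CD83, a marker of activated B cells, had 7.60 and 3.42 CPM with the translocation and 10.4 and 23.2 CPM without it. TNFAIP3, TRAF1, BIRC3, RELB, NFKB2 and NFKBIA belong to the target list as well as to the lists above. EdgeR's quasi-likelihood test called no gene of any of these lists at an adjusted p under 0.05.

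**Figure D3:**
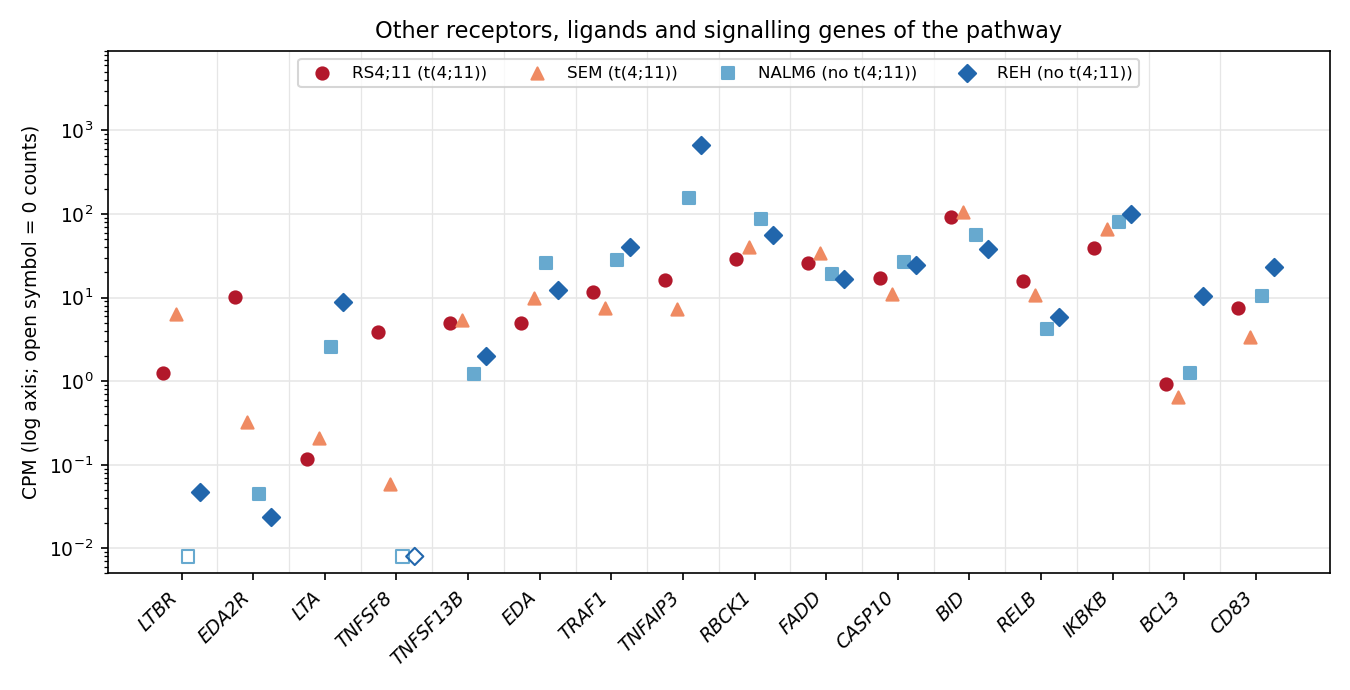
CPM on a log axis of the named ligands, further receptors and signalling genes in each line, with open symbols for 0 counts. TNFAIP3 and LTA show both translocation lines well below NALM6 and REH, and LTBR shows both above.

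**Figure D4:**
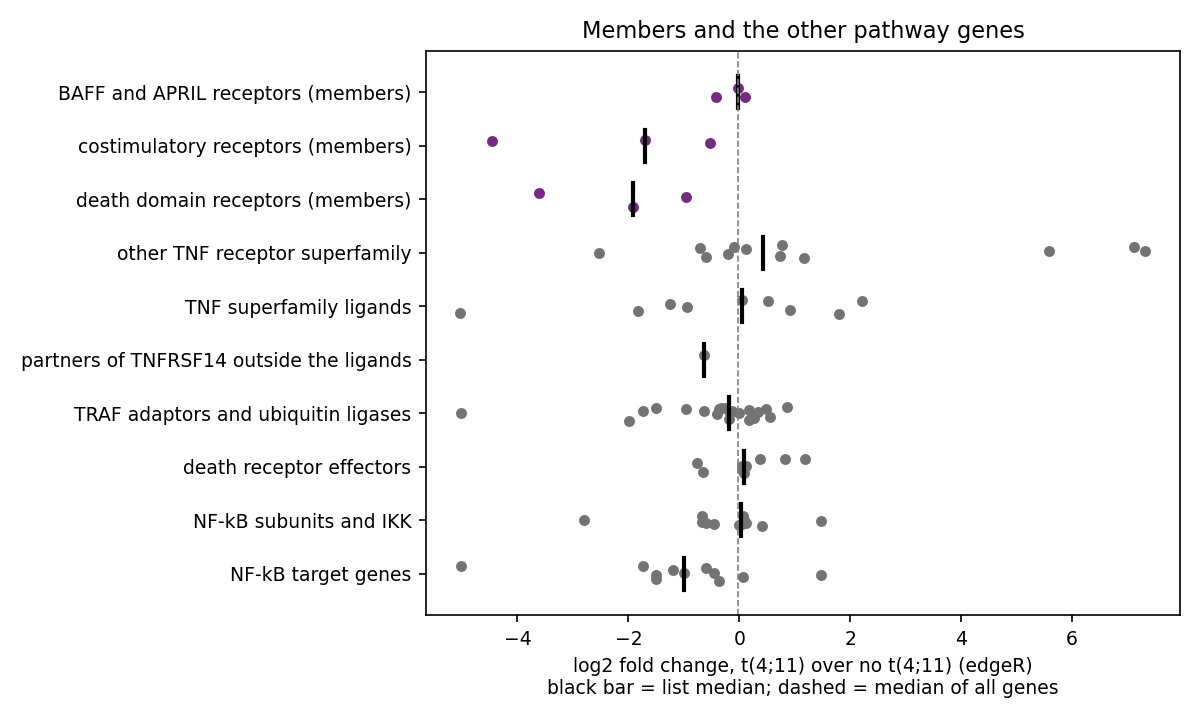
Log2 fold changes (t(4;11) over no t(4;11)) of the genes of each list that passed the filter, with the list's median as a black bar and the median of all genes tested, -0.02, as a dashed line. The medians of the costimulatory, death domain, and BAFF and APRIL receptors are -1.71, -1.91 and -0.02, each over 3 genes, with TNFRSF10A left out by the filter.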

How the data were processed

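Per the file headers, the authors deposited raw HTSeq counts of each gene in the 4 lines, with p-values of a DESeq comparison of the t(4;11) group with control. Also deposited by the authors were Cuffdiff results for the 2 groups, with 1 FPKM per gene and group, p-values and q-values. The genome build hg19, HTSeq, DESeq, Cuffdiff, CASAVA (1.8.2) and TopHat2 (2.0.4) appear in the submitters' processing notes without role or setting, and the annotation is not given in the sources used here. The library kit in the labels' protocols (TruSeq RNA) does not mark strand.

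Counts were divided by the column sum for CPM. Group differences came from edgeR 4.0.16 (R 4.3.3) by glmQLFit and a two-sided glmQLFTest after filterByExpr and TMM scaling, adjusted by Benjamini-Hochberg over 13844 genes, with 2 residual degrees of freedom and a biological coefficient of variation of 0.699. The SE is the log2 fold change divided by the square root of F. Replicate numbers follow listing order and pair no lines. Dates had replaced 28 symbols and 4 entries repeated a symbol; none is a gene named here. Single lines were compared by exact binomial intervals (95%), which cover only counting error, as PCR copies are not told from separate molecules. The fit was tested on simulated counts. Coordinates are Cuffdiff spans in hg19 counted from 1; promoters are from RefSeq and overlaps from GENCODE 29 (GRCh38), by symbol. The alternative tools were edgeR's exact test and DESeq2 1.42.0. Figures were drawn with matplotlib 3.10.9.

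The receptors, the pathway lists and the rule for named genes were chosen with earlier results of these data known. Besides the receptors, the genes named from the lists were those called in a deposited table and up to 3 per list with the largest log2 fold change among those with groups that do not overlap and a mean of at least 1 CPM. TNFRSF9, TNFSF4, LTB, TNF, TNFSF14, BTLA, CD160, CD40LG, CD70, CASP8 and TRAF4 were added after their values were seen. BIRC3, NFKB2 and NFKBIA are named only because lists share them. An item of these lists is not reported here.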

Additional observations from a re-analysis of the deposited data

How the results depend on the processing

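Without the filter on low counts edgeR's quasi-likelihood test called 5 genes in place of 0, edgeR's exact test called 441 and DESeq2 called 1349; it called 0 with RLE size factors and with each line left out. Of the pathway genes outside the 10 receptors it called 0 in these settings, while DESeq2 called 7 (BID, EDA2R, LTA, LTBR, RELB, TNFAIP3 and TRAF1) and the exact test 3 (LTA, LTBR and TNFAIP3), the last an alternative chosen after seeing the data. TRAF4 was the other TRAF gene with an unadjusted p under 0.05 (log2 fold change 0.87, SE 0.29, edgeR quasi-likelihood adjusted p = 0.405).

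The 4 receptors with groups that do not overlap were the same number under TMM and RLE scaling. With each line left out, also chosen after seeing the data, 6 to 8 receptors did not overlap. In the same settings between 67.7% and 79.6% of all genes tested did not overlap. TNFRSF14, TNFRSF21, TNFRSF10B and CD27 were among these receptors each time, which was fixed in advance. Groups that lie apart with all 4 lines cannot overlap with fewer. The sign of the log2 fold change turned with 1 line left out in 5 receptors. TNFRSF13C lay between -0.74 and 0.87, TNFRSF13B between -8.45 and 5.82, TNFRSF17 between -1.34 and 2.42, CD40 between -1.33 and 1.48 and TNFRSF1A between -1.54 and 0.032. The cause was not tested. RLE scaling, column sums, no filter and DESeq2 turned no sign of the 9 receptors. No paired analysis was possible because the labels give no pairing of the lines.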
